A study of Mus musculus with 12 samples.

Results

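The genes described here encode the potassium channel subunit Kv2.2 (*Kcnb2*) and 8 silent Kv subunits, namely *Kcng1*, *Kcng2*, *Kcng3*, *Kcng4*, *Kcns1*, *Kcns2*, *Kcns3* and *Kcnv1*. They were chosen by symbol, through the Ensembl gene ID of each count. These 9 symbols correspond to 10 of the 37991 gene IDs counted, since *Kcnb2* is split into a coding gene ID and a downstream one, and all 10 passed the expression filter that left 16399 genes for testing. The counts come from poly(A) RNA-seq of hippocampi from 12 C57BL/6N mice, 1 library each, of which 6 are labelled wild type and 6 Gadd45a-KO. The labels describe *Gadd45a*-/- mice and wild-type siblings from crosses of heterozygotes, 6 to 7 months old, and hippocampi taken 1 h after the passive avoidance (PA) test, in which a mouse receives a foot shock upon entering a dark compartment. The methods describe adult male mice up to 6 months old for the whole study, which meets the labelled ages only at 6 months. Both groups were trained, and no untrained mice are among the libraries. The deletion is present in every cell of the animal, with the first exons of *Gadd45a* replaced by a neomycin cassette and the last exon left in place.

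Kv2 channels are delayed rectifiers. They open slowly upon depolarization, shape repolarization during repetitive firing, and gather in large clusters on the soma and proximal dendrites, where they also tether the plasma membrane to the endoplasmic reticulum. Silent subunits do not form channels alone. They assemble with Kv2 subunits into mixed tetramers, whose gating and surface expression they alter, and their expression is generally more restricted than that of Kv2 subunits.

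The targeted gene did not follow the labels. *Gadd45a* had 102 to 154 reads in the libraries labelled wild type and 946 to 1179 in those labelled Gadd45a-KO (log2 fold change 3.06, standard error 0.09, adjusted p = 1.33e-10 by the quasi-likelihood test of edgeR, adjusted after Benjamini and Hochberg over all tested genes). Counts per gene do not separate the replaced exons from the remaining one, and libraries are therefore named by their labels throughout. Reads on genes numbered 44594261 to 55540601 per library. Of the reads with a unique alignment, 15.1% to 16.4% fell on no gene or could not be assigned to one in the libraries labelled wild type and 13.7% to 14.9% in those labelled Gadd45a-KO, without overlap, and the part of this in the results was not tested. Summed markers of CA pyramidal neurons came to 839 CPM (read counts scaled per 1000000 reads on genes) or more in every library. Those of dentate granule cells came to 454 CPM or more. On the CA list *Pou3f1* was at most 0.120 CPM, and its second gene ID was at 0 in every library. A list of 10 thalamic markers summed to 419 to 520 CPM in the libraries labelled wild type and to 433 to 1000.0 CPM in those labelled Gadd45a-KO. The median log2 fold change of these 10 genes was 1.02, and none had 0 reads. Replicates 2 and 3 labelled Gadd45a-KO stood apart on this list, at 758 and 1000.0 CPM. Replicate 3 was also highest for 4 oligodendrocyte markers, at 5713 CPM against 1849 to 2916 CPM in the other libraries. Summed markers of interneurons, striatum, choroid plexus, astrocytes, microglia and endothelium overlapped between the labels.

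A short coding stretch separates the Kv2 subunits from the silent ones. Each of the 9 genes encodes the glycine-tyrosine-glycine signature of a potassium-selective pore, and shortly downstream, in the last membrane-spanning segment (S6), Kv2 subunits carry a pair of prolines separated by a single residue. The stretches below, of 10 codons each, were read from the NCBIM37 genome and its GENCODE transcripts and are shown because they mark which members belong to either class. The codons at both proline positions are in capitals.
Kcnb2: gcccttCCTataCCCatcattgtgaacaat
Kcng3: gcattaCCCatcACTttcatctaccatagc
Kcng4: gctttcCCAgccACAtccatcttccacacg
Kcns2: gtcttgCCCatcACTttgatcttcaataag
Kcnv1: gccttgCCTattGCCattattaatgatcga
The first capital codon reads proline in all 9 members, and the second reads proline only in *Kcnb2* among them. It reads threonine in 7 of the 8 silent members and alanine in *Kcnv1*. The *Kcnb2* stretch lies on the plus strand at chr1:15700214-15700243, that of *Kcng3* on the minus strand at chr17:83987152-83987181, that of *Kcng4* on the minus strand at chr8:122149708-122149737, that of *Kcns2* on the plus strand at chr15:34769454-34769483 and that of *Kcnv1* on the minus strand at chr15:44940733-44940762. Each stretch lies within 1 coding exon. The proteins differ in length as well, with 907 codons for *Kcnb2* against 433 for *Kcng3*, the shortest of the silent members with a complete coding sequence.

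*Kcng3* was the member that differed most between the labels. It encodes Kv6.3, a silent subunit that associates with Kv2 channels. The gene (ENSMUSG00000045053) lies on the minus strand of chromosome 17 from 83985297 to 84031235 (all positions are those of NCBIM37), with 2 exons and an annotated 3′UTR of 1777 bases. In the libraries labelled wild type, *Kcng3* ranged from 1.21 to 2.28 CPM with a median of 1.32 CPM. In those labelled Gadd45a-KO it ranged from 0.386 to 0.969 CPM with a median of 0.594 CPM. Every library labelled Gadd45a-KO was therefore below every one labelled wild type. The mean was 1.57 ± 0.458 CPM against 0.649 ± 0.264 CPM (SD, n = 6 each), and the fitted log2 fold change was -1.27 with a standard error of 0.25 (adjusted p = 0.00722 by edgeR's quasi-likelihood test), a 2.41-fold lower level. Permuting the labels of the log2 CPM values exactly, two-sided, gave p = 0.00216 (the lowest attainable with 6 libraries per group). In bulk tissue, fewer cells of a type and less RNA per cell cannot be told apart. The libraries were poly(A)-selected, and the counts cover annotated exons only. For *Kcnq3*, also lower here, the paper proposes a less stable transcript, and qPCR of it on random-primed cDNA showed no significant change. Whether *Kcng3* transcripts were fewer or more fragmented was not tested. *Kcng3* was the only one of the 10 member gene IDs past 1% FDR among those that were lower, and no member was past it among those that were higher (0 at an unadjusted p below 0.05, and 0 past 1% FDR by DESeq2). Of all genes tested, 2.62% were lower at this threshold and 0.0244% higher. An unadjusted p below 0.05 by edgeR, in either direction, was found for 2245 of 16399 genes, and DESeq2 placed 19 of 25857 higher. These 25857 are all genes with any read, before the filter that DESeq2 applies ahead of adjusting p. Shares of them can therefore be too low and are not on the same footing as those of edgeR.

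**Figure D1:**
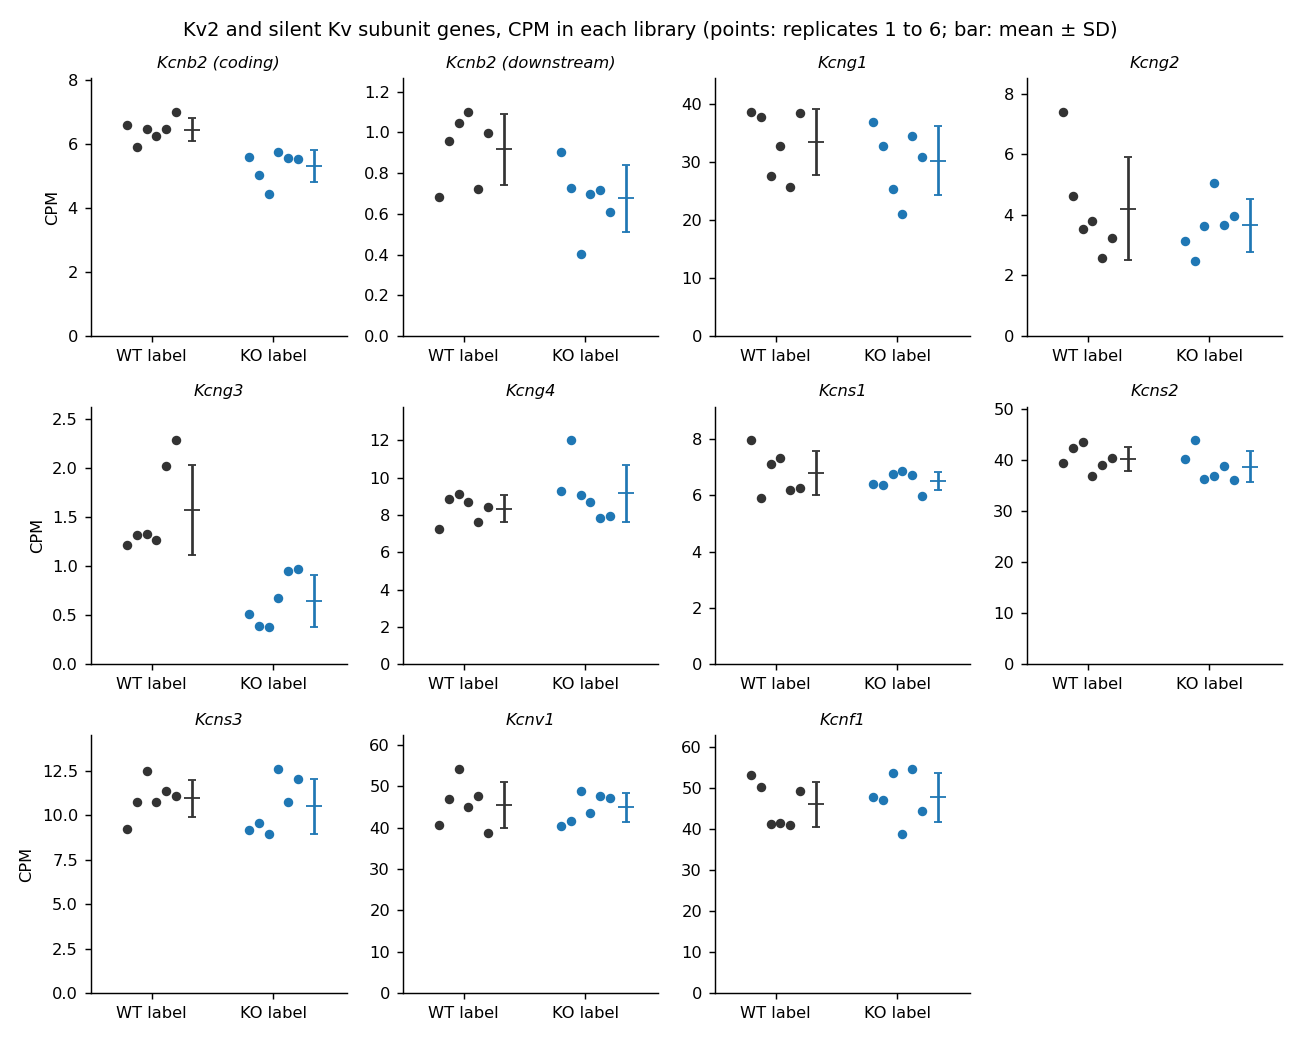
CPM of each member gene ID and of *Kcnf1* in each of the 12 libraries, by label, with points from left to right for replicates 1 to 6 and a bar for the mean ± SD; every vertical axis starts at 0. For *Kcng3* the highest library labelled Gadd45a-KO, at 0.969 CPM, lies below the lowest labelled wild type, at 1.21 CPM, whereas the points of *Kcns1*, *Kcns2*, *Kcns3* and *Kcnv1* overlap.

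The *Kcng3* values rest on few reads and vary within each label. It had 55 to 114 reads per library labelled wild type and 18 to 51 per library labelled Gadd45a-KO. Replicates 5 and 6 were the highest in both groups, at 2.02 and 2.28 CPM with the wild-type label and at 0.953 and 0.969 CPM with the Gadd45a-KO label. The lowest were replicates 2 and 3 labelled Gadd45a-KO, at 0.396 and 0.386 CPM, which were also the 2 libraries highest on the thalamic list. Without both of them the log2 fold change was -1.01 (adjusted p = 0.0366 by edgeR), past 5% FDR and no longer past 1%, and the part of the thalamic markers in the difference was not otherwise tested. The coefficient of variation of *Kcng3* was 29.3% with the wild-type label and 40.7% with the Gadd45a-KO label, against a median over all tested genes of 7.60% and 7.96%. The counts also spread more widely than Poisson error within each label, since chi-square divided by its degrees of freedom was 6.74 and 5.30.

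The direction for *Kcng3* did not depend on any one library, but the call at 1% FDR did. With 1 library left out at a time the log2 fold change stayed between -1.42 and -1.13. The adjusted p of edgeR's test was above 1% without wild-type replicates 2 (0.0124), 3 (0.0140), 4 (0.0103), 5 (0.0251) or 6 (0.0217), and without Gadd45a-KO replicates 1 (0.0255), 2 (0.0187), 3 (0.0160) or 4 (0.0168). It stayed below 1% in the other 3 of 12 fits (without wild-type replicate 1 or Gadd45a-KO replicates 5 or 6), and below 5% in all 12. An offset for transcript length placed *Kcng3* at -1.29 on the log2 scale (adjusted p = 0.00943), and DESeq2 placed it at -1.27 (adjusted p = 5.09e-05).

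**Figure D2:**
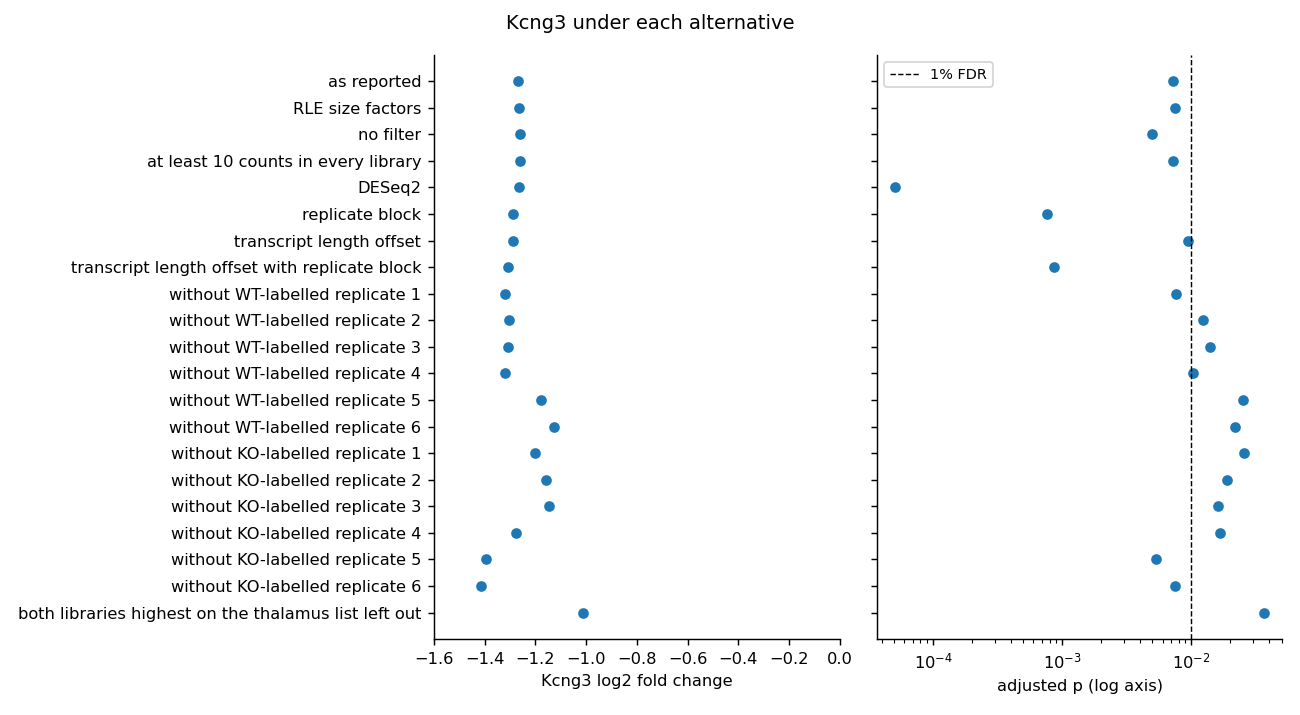
Log2 fold change of *Kcng3* (left) and its adjusted p on a log axis (right) under each alternative fit, one row per fit, with the dashed line at 1% FDR. The fold change lies between -1.42 and -1.01 in every row, while the adjusted p falls on either side of the line when a library is left out.

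*Kcnb2* encodes Kv2.2, a pore-forming partner of the silent subunits. Its coding gene ID (ENSMUSG00000092083) lies on the plus strand of chromosome 1 from 15302533 to 15701710 in 2 exons. It measured 5.90 to 6.99 CPM, with a median of 6.46 CPM, in the libraries labelled wild type. With the Gadd45a-KO label it measured 4.43 to 5.74 CPM, with a median of 5.55 CPM. The groups did not overlap, and the lowest values were again those of replicates 3 and 2 labelled Gadd45a-KO, at 4.43 and 5.03 CPM. The log2 fold change was -0.28 (standard error 0.07), a level lower by 17.4%, with an adjusted p of 0.0359 by edgeR's test that missed 1% FDR. DESeq2 placed it past 1% FDR, at -0.27 (adjusted p = 0.00914), and the exact permutation test gave p = 0.00216. Without replicates 2 and 3 labelled Gadd45a-KO the log2 fold change was -0.20 (adjusted p = 0.167 by edgeR). With 1 library left out at a time, edgeR's adjusted p of the coding *Kcnb2* was above 5% in 10 of 12 fits (up to 0.106) and below it only without wild-type replicate 2 (0.0376) or Gadd45a-KO replicate 4 (0.0405). Of the 10 member gene IDs, 2 had every library labelled Gadd45a-KO below every library labelled wild type, namely *Kcng3* and the coding *Kcnb2*. Over all tested genes this share was 3.12%.

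The annotation ends *Kcnb2* at its stop codon and places a second gene ID of the same symbol (ENSMUSG00000090498) further downstream. That ID is annotated with a coding sequence of 339 bases and a 3′UTR of 3302 bases of its own. Whether it belongs to the *Kcnb2* transcript was not tested. This downstream ID begins 673 bases after the coding one ends, at 15702384, and runs as a single exon to 15706448. It had 31 to 61 reads with the wild-type label (0.682 to 1.10 CPM) and 21 to 46 with the Gadd45a-KO label (0.405 to 0.902 CPM), with overlap. Its fitted log2 fold change came to -0.45, with a standard error of 0.18 and an adjusted p of 0.271 by edgeR (exact permutation p = 0.0325, one of 10 such tests over the member gene IDs). Reads on the downstream ID came to 14.3% ± 2.96 of those on the coding ID with the wild-type label and 12.6% ± 2.48 with the Gadd45a-KO label (SD, n = 6 each). This ratio did not differ beyond its spread (two-sided exact permutation test, p = 0.325, chosen after the split of the gene had been seen). With the reads of both IDs summed, the log2 fold change of *Kcnb2* was -0.30 (adjusted p = 0.0277 by edgeR).

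The Kv6 genes other than *Kcng3* did not pass the test. *Kcng1* (ENSMUSG00000074575), which encodes Kv6.1, lies on the minus strand of chromosome 2 from 168085617 to 168107236. It ranged from 25.7 to 38.6 CPM, with a median of 35.3 CPM, in the libraries labelled wild type and from 21.0 to 36.9 CPM, with a median of 31.8 CPM, in those labelled Gadd45a-KO (log2 fold change -0.15, standard error 0.14, adjusted p = 0.736 by edgeR). The spread within each label, at a coefficient of variation of 17.1% and 19.8%, was larger than the difference of the means. Replicate 4 labelled Gadd45a-KO had the lowest value, at 21.0 CPM. That library was also the lowest on the dentate granule cell list, at 454 CPM, and the part of this in its value was not tested. *Kcng4* (ENSMUSG00000045246), the gene of Kv6.4, lies on the minus strand of chromosome 8 from 122147754 to 122159580, and it was the only member with a positive fold change. It measured 7.28 to 9.15 CPM (median 8.59 CPM) and 7.86 to 12 CPM (median 8.90 CPM), which edgeR put at 0.13 on the log2 scale with a standard error of 0.10 (adjusted p = 0.636). The highest value was that of replicate 2 labelled Gadd45a-KO, without which the log2 fold change was 0.05.

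*Kcng2* (ENSMUSG00000059852) encodes Kv6.2, and the annotation used here holds only a fragment of it, 1 exon of 705 bases on chromosome 18, with 234 codons. It ranged from 2.59 to 7.39 CPM, with a median of 3.67 CPM, with the wild-type label and from 2.46 to 5.06 CPM, with a median of 3.65 CPM, with the Gadd45a-KO label. The medians were close, and the log2 fold change of -0.19, with a standard error of 0.23 (adjusted p = 0.811 by edgeR), turned to 0.05 without replicate 1 labelled wild type, which had 7.39 CPM against 4.63 CPM or less in the rest of its group.

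The Kv9 genes and *Kcnv1* showed the smallest differences. *Kcns1* (ENSMUSG00000040164), which encodes Kv9.1 and lies on the minus strand of chromosome 2 from 163989355 to 163996849, measured 5.92 to 7.94 CPM with the wild-type label and 5.98 to 6.87 CPM with the Gadd45a-KO label, medians of 6.68 and 6.56 CPM (log2 fold change -0.06, standard error 0.08, adjusted p = 0.830 by edgeR). *Kcns2* (ENSMUSG00000050963), the gene of Kv9.2, lies on the plus strand of chromosome 15 from 34767110 to 34772095. It measured 36.9 to 43.4 CPM and 36.0 to 43.8 CPM, medians of 39.9 and 37.9 CPM (log2 fold change -0.06, standard error 0.05, adjusted p = 0.743 by edgeR). *Kcns3* (ENSMUSG00000043673), the gene of Kv9.3 on the minus strand of chromosome 12 from 11097008 to 11157648, measured 9.24 to 12.5 CPM and 8.93 to 12.6 CPM, medians of 10.9 and 10.2 CPM (log2 fold change -0.06, standard error 0.09, adjusted p = 0.871 by edgeR). The groups overlapped for all 3 genes.

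*Kcnv1* (ENSMUSG00000022342) encodes Kv8.1, a silent subunit that lowers Kv2 currents when both are expressed together, and lies on the minus strand of chromosome 15 from 44937830 to 44946480. It ranged from 38.8 to 54.2 CPM, with a median of 45.9 CPM, with the wild-type label and from 40.4 to 49.0 CPM, with a median of 45.5 CPM, with the Gadd45a-KO label. Its log2 fold change was -0.02, with a standard error of 0.07 (adjusted p = 0.949 by edgeR), and 2 standard errors to each side spanned -0.17 to 0.13. The same interval ran from -0.21 to 0.09 for *Kcns1*, from -0.16 to 0.05 for *Kcns2* and from -0.25 to 0.13 for *Kcns3*, all of which leave out a change as large as the fitted value of *Kcng3*. It was wider for *Kcng1* (-0.42 to 0.12), *Kcng2* (-0.64 to 0.26) and *Kcng4* (-0.06 to 0.33), and for these it left out such a change as well.

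**Figure D3:**
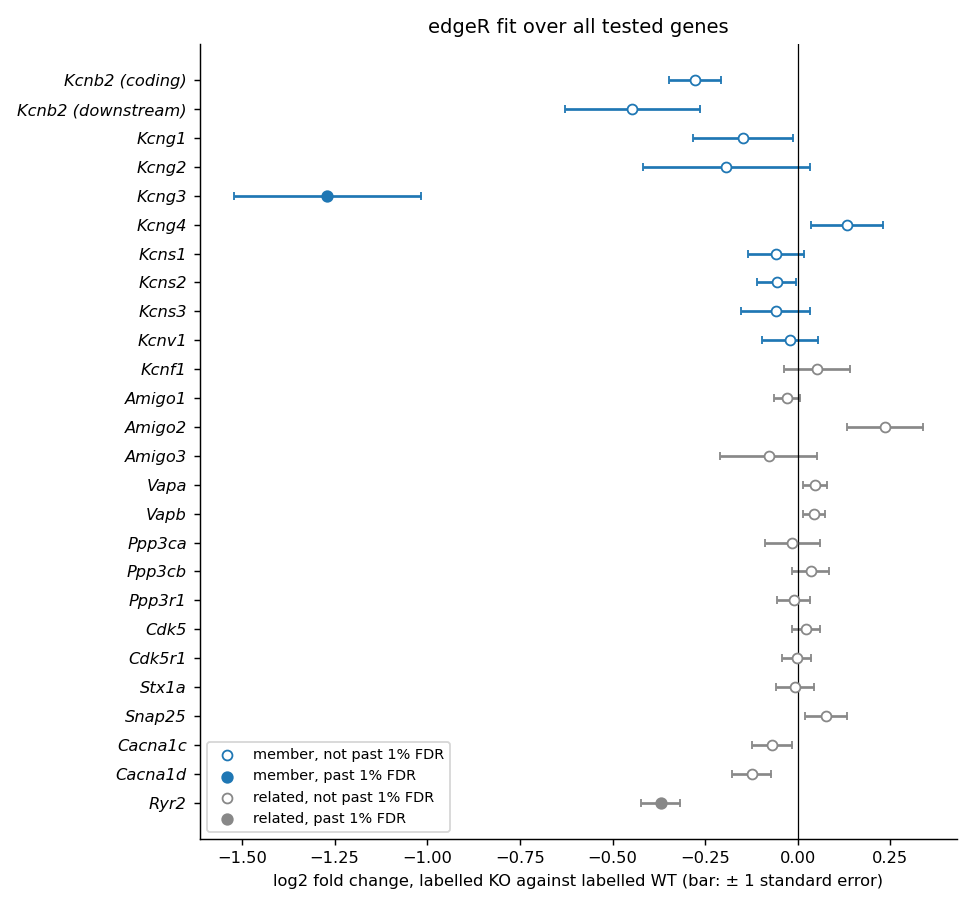
Log2 fold change, libraries labelled Gadd45a-KO against those labelled wild type, with a bar of 1 standard error to each side, for the 10 member gene IDs (blue) and the 16 related genes that passed the filter (grey); filled points are past 1% FDR. *Kcng3*, at -1.27, and *Ryr2*, at -0.37, are the filled points, and the other silent subunits lie between -0.19 and 0.13.

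Over the member gene IDs, 9 of 10 fold changes were negative and 1 was positive, with a median log2 fold change of -0.10. Both IDs of *Kcnb2*, which may be parts of 1 gene, are among the negative ones. The signs of *Kcng2* and *Kcnv1* turned in some fits without 1 library (up to 0.05 and 0.04). Over all tested genes the median was 0.00330, with 7905 negative and 8494 positive. For the 7 silent members other than *Kcng3*, the median was -0.06 and none was past 1% FDR. None of them had an unadjusted p below 0.05 in edgeR's fit (0 of 7) or an adjusted p below 0.01 in DESeq2 (0 of 7). Among all genes, edgeR gave an unadjusted p below 0.05 to 2245 of 16399, and DESeq2 placed 661 lower and 19 higher of the 25857 with any read. With 7 genes, a count of 0 does not set them apart from these shares. The levels per kb of the silent members without *Kcng2*, a set that includes *Kcng3*, summed to 33.8 to 37.6 CPM per kb with the wild-type label and 31.9 to 35.4 with the Gadd45a-KO label, with overlap.

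Levels between genes were compared per kb of merged exon. In the libraries labelled wild type, *Kcnv1* was the highest member at 10.1 ± 1.23 CPM per kb, followed by *Kcns2* (9.16 ± 0.541), *Kcng1* (7.43 ± 1.27), *Kcng2* (5.95 ± 2.42), *Kcns3* (3.58 ± 0.344), *Kcns1* (2.50 ± 0.292), the coding *Kcnb2* (2.35 ± 0.133), *Kcng4* (2.19 ± 0.194), *Kcng3* (0.467 ± 0.137) and the downstream *Kcnb2* ID (0.226 ± 0.0429; SD, n = 6 each). Neighbours in this order whose ranges did not overlap were *Kcns3* and *Kcns1*, *Kcng4* and *Kcng3*, and *Kcng3* and the downstream *Kcnb2* ID. The ranges of all other neighbours overlapped. *Kcnf1*, the gene of the silent subunit Kv5.1, lay between *Kcnv1* and *Kcns2* at 9.62 ± 1.16 CPM per kb. *Kcng3*, the silent gene that differed between the labels, was thus the least expressed of the 8. The value of *Kcng2* refers to the annotated fragment only, and the length of the longest transcript in place of merged exons raised *Kcng1* to 8.19 CPM per kb and moved no member by more than its SD. The coding *Kcnb2* ID is annotated without a 3′UTR. The silent genes other than *Kcng2* include annotated 3′UTRs of 929 (*Kcns1*) to 2690 bases (*Kcnv1*). The part of this in the place of *Kcnb2* was not tested.

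**Figure D4:**
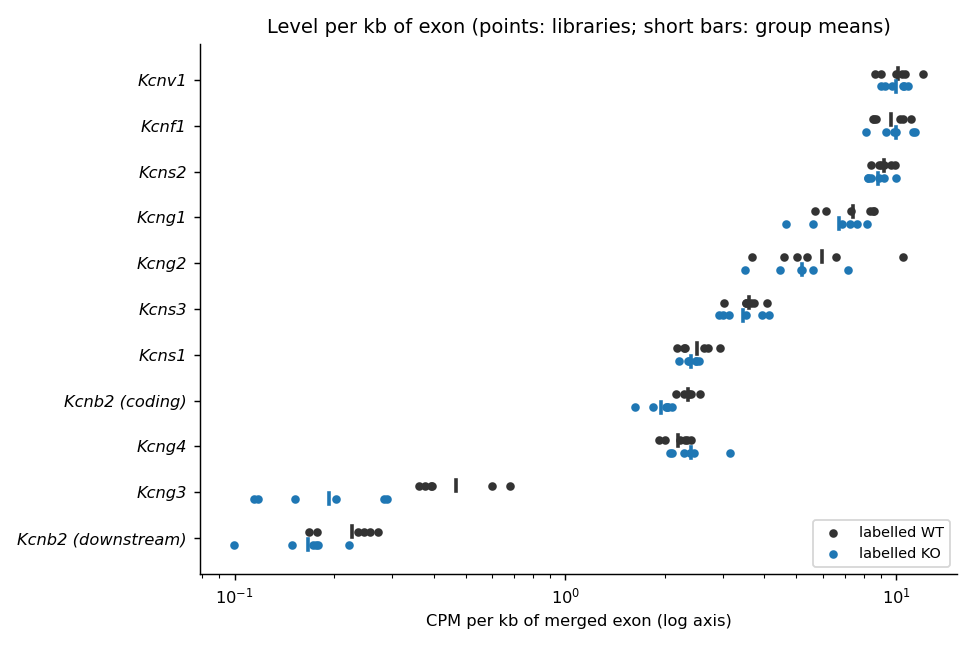
Level of each member gene ID and of *Kcnf1* per kb of merged exon, on a log axis, with a point per library (black, labelled wild type; blue, labelled Gadd45a-KO) and short bars for the group means. *Kcng3*, at 0.467 CPM per kb with the wild-type label, lies below all other silent subunits, which begin at 2.19.

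Of 17 related genes, 16 passed the filter, 1 was lower at 1% FDR and 0 were higher by edgeR's test, with 2 lower and 1 higher at an unadjusted p below 0.05 and 0 higher by DESeq2. Among all genes, edgeR gave an unadjusted p below 0.05 to 2245 of 16399, and DESeq2 placed 19 of the 25857 with any read higher. The median log2 fold change over the 16 was -0.00542. Of the other silent subunits, *Kcnf1* measured 40.9 to 53.2 CPM with the wild-type label and 38.7 to 54.7 CPM with the Gadd45a-KO label (log2 fold change 0.05, standard error 0.09, adjusted p = 0.883 by edgeR). *Kcnv2*, the gene of Kv8.2, is known chiefly from photoreceptors and had 0 to 4 reads per library, too few for the test. *Amigo1*, which encodes an auxiliary subunit of Kv2 channels, measured 127 to 140.0 CPM and 122 to 136 CPM (log2 fold change -0.03, standard error 0.03, adjusted p = 0.812 by edgeR). The gene that passed was *Ryr2*, the ryanodine receptor that sits opposite Kv2 clusters at junctions with the endoplasmic reticulum. It measured 469 to 532 CPM with the wild-type label and 353 to 444 CPM with the Gadd45a-KO label, without overlap (log2 fold change -0.37, standard error 0.05, adjusted p = 0.000692 by edgeR). With the transcript length offset its log2 fold change was -0.18 (adjusted p = 0.0161), no longer past 1% FDR. The other AMIGO genes, the endoplasmic reticulum tethers, calcineurin subunits, Cdk5 and its activator, SNARE proteins and L-type channels of the list were not past 1% FDR.

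The genes whose levels followed *Kcng3* most closely over the 12 libraries were found by the root mean square difference of log2 CPM, each gene centred on its own mean. The nearest of all tested genes was *Cbl*, the gene of a ubiquitin ligase, with a difference of 0.234, followed by *Kcnq3*, which encodes a subunit of the M-current channel (0.275), *BC018473* (0.292), *A230006K03Rik* (0.293) and *Gm14738* (0.298). The median difference over all tested genes was 0.780. *Kcnq3* measured 17.4 to 34.5 CPM with the wild-type label and 8.42 to 16.4 CPM with the Gadd45a-KO label, and *Cbl* measured 22.9 to 44.8 CPM and 8.18 to 22.7 CPM. Both were also highest in replicates 5 and 6 with the wild-type label. With the Gadd45a-KO label, however, the highest were replicates 5 and 4 for *Cbl* (22.7 and 19.3 CPM) and 4 and 5 for *Kcnq3* (16.4 and 14.7 CPM). Since these genes were picked for their likeness to *Kcng3*, their own fold changes (-1.20 for *Cbl* and -1.16 for *Kcnq3*) are a description. The coding *Kcnb2* ranked 464 in this order, while the nearest other silent subunit, *Kcns3*, ranked 1697. The measure includes the difference between the labels, so these ranks partly restate the log2 fold changes (-0.28 and -0.06).

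**Figure D5:**
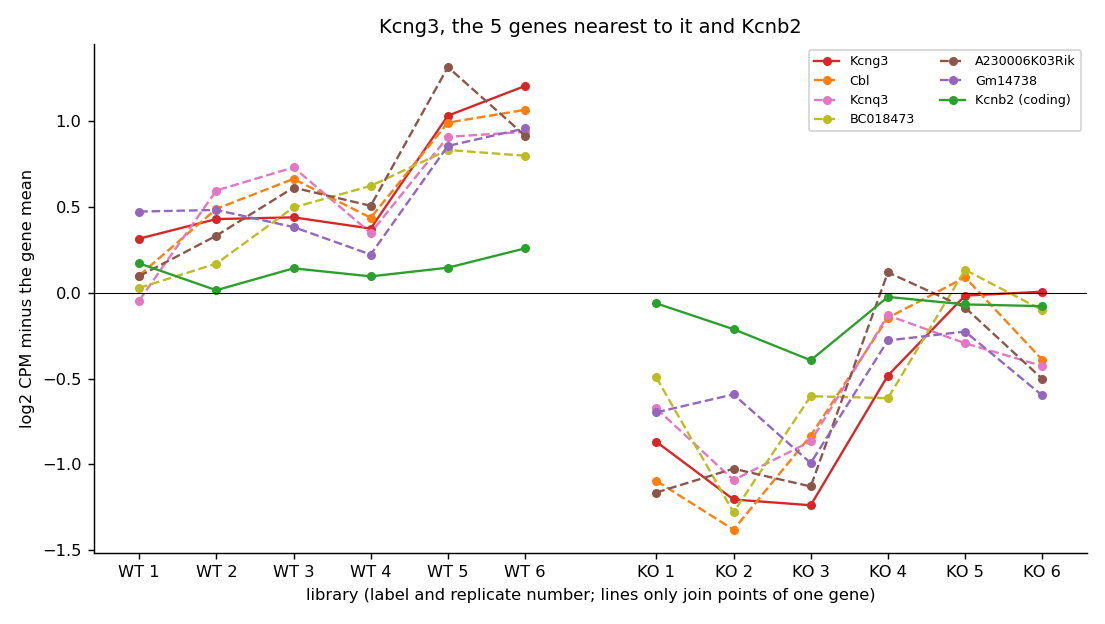
Log2 CPM minus the mean of each gene over the 12 libraries, for *Kcng3*, the 5 genes nearest to it (dashed) and the coding *Kcnb2*; lines only join the points of one gene, since replicates have no order. *Kcnb2* is lowest in replicates 2 and 3 labelled Gadd45a-KO, as *Kcng3* is, but over a smaller range.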

How the data were processed

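Hippocampal poly(A) RNA of 6 mice labelled wild type and 6 labelled Gadd45a-KO was sequenced by the authors with a stranded kit. Reads were aligned to NCBIM37/mm9 with TopHat 1.4.1 and counted per Ensembl gene with HTSeq 0.5.4p3 in the stranded mode. The deposited files hold these read counts without normalization. Ambiguous and unassigned reads were left out of library sizes. Gene names, lengths and sequences come from GENCODE annotation of the same build, which matched 37205 of 37991 gene IDs.

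Counts were filtered with edgeR 4.0.16 (R 4.3.3, filterByExpr), scaled by TMM factors of 0.978 to 1.02 and fitted without covariates. Its quasi-likelihood F test was called at 1% FDR, and each standard error is the absolute log2 fold change divided by the root of F. Log2 CPM used a prior count of 2, and its group means were compared by exact two-sided permutation in Python 3.11.15, with figures from matplotlib 3.10.9. The edgeR fit was tested on simulated data first. The members and lists were chosen with earlier results of these data known. All members, *Kcnf1*, *Kcnv2*, *Amigo1*, related genes past 1% FDR and the 5 genes nearest to a member past 1% FDR are named (1 other related gene is not reported here), and the SE-based intervals span 2 standard errors to each side. Nothing states whether equal replicate numbers share a batch, and the paper states that the order of RNA preparation and sequencing was randomized. The p-values measure the spread between these libraries, which includes that of any batch among them. The smallest two-sided exact p is 0.00216. DESeq2 1.42.0, RLE size factors, 2 other filters, 5% FDR, a replicate block, a transcript length offset (spline with 5 degrees of freedom), a prior count of 0.5 and leaving out each library were alternatives. Summing both *Kcnb2* IDs, the test of their ratio and leaving out the 2 libraries high in thalamic markers were added after seeing the data.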

Additional observations from a re-analysis of the deposited data

Results flagged for a closer look

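Among the members, the related genes and *Gadd45a*, 54 groups of 6 libraries were examined for a library whose gap to its nearest neighbour exceeded Dixon's 95% critical share of the range of the group, which chance gives for about 1 group in 20, and 5 were found. The one among the members was *Kcng4*, where replicate 2 labelled Gadd45a-KO had 12 CPM against 7.86 to 9.32 CPM in the other 5. This library was also the second highest on the thalamic list, and the part of that in its value was not tested. Of the related genes, *Amigo2* was high in replicate 3 labelled Gadd45a-KO (48.0 CPM against 37.9 to 41.4), *Amigo3* low in replicate 5 labelled Gadd45a-KO (0.866 CPM against 1.16 to 1.27), *Cdk5r1* high in replicate 1 labelled wild type (261 CPM against 236 to 244) and *Ryr2* high in replicate 5 labelled Gadd45a-KO (444 CPM against 353 to 386).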

How the results depend on the processing

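The number of genes lower at 1% FDR was 430, and it was 661 with DESeq2, 280 with the transcript length offset, 726 at 5% FDR, 199 without the 2 libraries high in thalamic markers and 239 to 467 with 1 library left out (268, 239 and 261 without wild-type replicates 3, 5 and 6, and 248, 276 and 248 without Gadd45a-KO replicates 1, 2 and 6). The number higher was 4, and it was 19 with DESeq2, 8 with the transcript length offset and replicate block, 20 at 5% FDR and 3 to 4 with 1 library left out. The cause was not tested. The coding *Kcnb2* passed 1% FDR with DESeq2 (log2 fold change -0.27, adjusted p = 0.00914) and passed 5% FDR as fitted (-0.28), but missed 5% FDR without the filter (adjusted p = 0.0604) and in 10 of 12 fits without 1 library (over all 12, -0.29 to -0.22 with adjusted p = 0.0376 to 0.106). *Kcng3* missed 1% FDR without the 2 libraries high in thalamic markers (-1.01) and in 9 of 12 fits without 1 library (-1.42 to -1.13). With 1 library left out no other member gained or lost a call, over ranges of -0.54 to -0.33 for the downstream *Kcnb2*, -0.21 to -0.06 for *Kcng1*, -0.30 to 0.05 for *Kcng2*, 0.05 to 0.18 for *Kcng4*, -0.09 to -0.0011 for *Kcns1*, -0.09 to -0.03 for *Kcns2*, -0.11 to -0.01 for *Kcns3* and -0.06 to 0.04 for *Kcnv1*. With a prior count of 0.5 or 1 library left out, the exact permutation p was 0.00649 or less for *Kcng3* and 0.00433 or less for the coding *Kcnb2*. Samples with equal replicate numbers deviated together in 5 of 6 pairs at a correlation over 0.1, with a mean of 0.140 against -0.03 for unequal numbers, and 4 of 12 libraries correlated best with their own number. The pair numbered 6 was at -0.08, and the numbers were not taken as pairs, since that required a correlation over 0.1 in every pair; the fits without 1 library have no block. With the replicate block 509 genes were lower and 5 higher, *Kcng3* was at -1.29 (adjusted p = 0.000761) and the coding *Kcnb2* at -0.28 (adjusted p = 0.0445), and no member's call changed. Depth limits *Kcng3* and the downstream *Kcnb2*, with under 115 reads in every library.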
